A study of Mus musculus with 24 samples.

Results

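The nuclear genes for the subunits of the mitochondrial respiratory chain were followed in mouse liver across 4 diets. They were taken by symbol, as every row of the count table named Nduf (a, b, c, s or v followed by a digit), Sdha to Sdhd, Uqcr, Cox4 to Cox8 or Atp5. This gave 83 of the 13686 genes in the table, with 40 in complex I, 4 in complex II, 8 in complex III, 14 in complex IV and 17 in complex V. The livers came from male wild-type C57BL/6 mice kept for 6 weeks on a diet enriched in cottonseed oil (CSO, 6 libraries), olive oil (OO, 6) or safflower oil (SFO, 5), or chow (6). The labels give no age. Messenger RNA was counted with QuantSeq, which reads a tag at the 3′ end of each transcript, and the libraries held 5428649 to 14930305 counts. Nothing in the labels ties a library to its own animal, so a p-value here reflects only how much the libraries of a diet vary, and part of that may be technical. In bulk liver, fewer cells of a type and less RNA per cell cannot be told apart. The chow comparisons set a whole oil diet against chow, and the oil cannot be told apart from the rest of the diet.

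The respiratory chain carries electrons from NADH through complex I, and from succinate through complex II, to ubiquinone. Complex III passes them to cytochrome c and complex IV to oxygen. Complexes I, III and IV pump protons across the inner mitochondrial membrane, and complex V, the ATP synthase, uses the proton gradient to make ATP. Each complex except complex II also holds subunits encoded by mitochondrial DNA, which are not analysed here. In liver the chain takes up the electrons released when fatty acids are oxidised. Promoters of many of these genes are known to bind the factors NRF1, GABP of the ETS family and the estrogen-related receptors (ERR).

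Promoter windows of 250 bases before to 50 after the start of the gene were matched by symbol for 66 subunits, in 71 windows, from the RefSeq table of build GRCm38.p6. The letters GCGCATGC, the core of the NRF1 motif, were found on either strand in 14.1% of these windows, against 2.71% of all 32851 windows. CCGGAAG, an ETS motif, was found in 23.9% against 8.86%, and AAGGTCA, an ERR motif, in 11.3% against 4.72%. A match is a description of the letters and not a bound site. Below, 4 windows are shown, 1 for a subunit of each of complexes II and IV and 2 for complex III, from genes described below. All 4 hold NRF1 or ETS letters, so they are not typical of the subunits. The windows of Ndufa10, Ndufa4, Sdha and Uqcrfs1, also described below, hold none of the 3 motifs. A link between motif and diet was not tested. Each is written 5′ to 3′ on the strand of its gene, and capitals mark the NRF1 and ETS letters on either strand. The Cox6a1 window also holds the ETS letters. In the Cox6a1 window (chr5:115348909-115349208, minus strand) and the Uqcrc1 window (chr9:108936398-108936697, plus strand) the NRF1 letters of the 2 strands overlap. The Sdhb window (chr4:140961021-140961320, plus strand) holds both motifs, and the Uqcrh window (chr4:116075021-116075320, minus strand) only the ETS letters.
Cox6a1: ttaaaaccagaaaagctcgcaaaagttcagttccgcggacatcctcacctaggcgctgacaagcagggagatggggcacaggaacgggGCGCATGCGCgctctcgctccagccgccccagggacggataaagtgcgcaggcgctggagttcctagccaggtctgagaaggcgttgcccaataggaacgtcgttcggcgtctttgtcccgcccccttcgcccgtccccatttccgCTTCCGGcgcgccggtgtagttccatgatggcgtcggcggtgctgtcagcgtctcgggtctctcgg
Uqcrc1: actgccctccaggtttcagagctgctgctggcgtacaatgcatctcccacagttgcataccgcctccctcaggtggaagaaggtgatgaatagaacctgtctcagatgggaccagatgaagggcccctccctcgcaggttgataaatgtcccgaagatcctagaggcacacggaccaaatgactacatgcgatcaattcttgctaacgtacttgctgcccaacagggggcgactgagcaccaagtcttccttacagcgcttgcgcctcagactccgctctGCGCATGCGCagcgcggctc
Sdhb: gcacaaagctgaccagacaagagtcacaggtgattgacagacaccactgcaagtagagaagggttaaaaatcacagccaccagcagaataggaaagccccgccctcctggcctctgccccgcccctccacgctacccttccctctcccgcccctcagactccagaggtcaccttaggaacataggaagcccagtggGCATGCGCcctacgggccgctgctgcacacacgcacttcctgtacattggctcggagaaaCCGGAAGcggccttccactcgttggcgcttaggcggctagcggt
Uqcrh: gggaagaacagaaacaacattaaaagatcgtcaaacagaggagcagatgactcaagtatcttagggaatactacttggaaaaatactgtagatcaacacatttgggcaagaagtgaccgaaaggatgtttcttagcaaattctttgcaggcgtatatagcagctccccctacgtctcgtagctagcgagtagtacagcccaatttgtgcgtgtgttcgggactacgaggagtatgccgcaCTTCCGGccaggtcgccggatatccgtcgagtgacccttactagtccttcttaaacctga

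All libraries carried the markers of liver. The 10 hepatocyte genes listed summed to 108206 to 155379 CPM (counts scaled to library size, with TMM factors for library composition) in CSO, 143956 to 188467 in OO, 126440 to 165078 in SFO and 116453 to 152714 in chow. Skeletal muscle transcripts were found in many libraries and were highest in 4. The 22 muscle markers summed to 1927 CPM in CSO 1, and to 2528, 4291 and 958 CPM in chow 3, chow 4 and chow 5. The same sum was 25.8 to 123 CPM in the other CSO libraries and 21.9 to 152 CPM in the other chow libraries. In OO it was 4.03 to 46.9 CPM, with Pvalb at 0 in all 6 libraries, and in SFO 8.92 to 106 CPM, with Pvalb and Ckmt2 at 0. Of the 83 subunits, 79 passed the filter on low counts. The other 4, Cox7a1, Cox7c-ps1, Ndufa11b and Ndufa4l2, were at 57 to 149 counts over all libraries.

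No subunit changed by the adjusted test in any of the 6 comparisons between diets. With edgeR's quasi-likelihood test, adjusted by Benjamini-Hochberg over 11971 genes, 0 of 79 subunits were called for CSO over chow (0.409% of all genes were), OO over chow (2.64%), SFO over chow (0.835%), CSO over OO (1.09%), CSO over SFO (0.493%) and SFO over OO (1.06%). At an unadjusted p under 0.05 there were 0 of 79 for CSO over chow, where 5.32% of all genes passed. For OO over chow there were 9 (16.1% of all genes), with 2 higher (9.68% of all genes) and 7 lower (6.44%). Cox6a2, described below, is among the 7, among the 13 of CSO over OO and among the 4 higher of SFO over OO given next. For SFO over chow there was 1, lower (7.74% of all genes passed, and 3.77% were lower). For CSO over OO there were 13 (14.7% of all genes), all higher, a direction in which 5.7% of all genes passed. For CSO over SFO there were 6 (7.69%), all higher (3.6%). For SFO over OO there were 10 (15.3%), with 4 higher (6.44%) and 6 lower (8.9%). DESeq2's Wald test called Atp5k, lower in OO than in chow, where 5.73% of all genes were called. It called 0 subunits for CSO over chow (0.819% of all genes), SFO over chow (1.56%), CSO over OO (3.45%), CSO over SFO (1.03%) and SFO over OO (3.86%).

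The median log2 fold change of the 79 subunits was 0.09 in CSO over chow (median of all genes -0.02), -0.30 in OO over chow (0.07) and -0.05 in SFO over chow (0.01). In OO over chow 60 of the 79 were negative, where 5456 of the 11971 genes were. In CSO over chow 55 were positive, where 5751 of all genes were. The 95% interval of the fold change lay inside a 2-fold change either way for 54 subunits in CSO over chow, 40 in OO over chow and 49 in SFO over chow. The share of all genes with so narrow an interval was 31.9% in CSO over chow, 26.7% in OO over chow and 28.3% in SFO over chow. Between oils 37 subunits had such an interval in CSO over OO (26.8% of all genes), 50 in CSO over SFO (27.8%) and 44 in SFO over OO (24.4%). The heat map of subunits by library shows that the differences run by library as well as by diet.

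**Figure D1:**
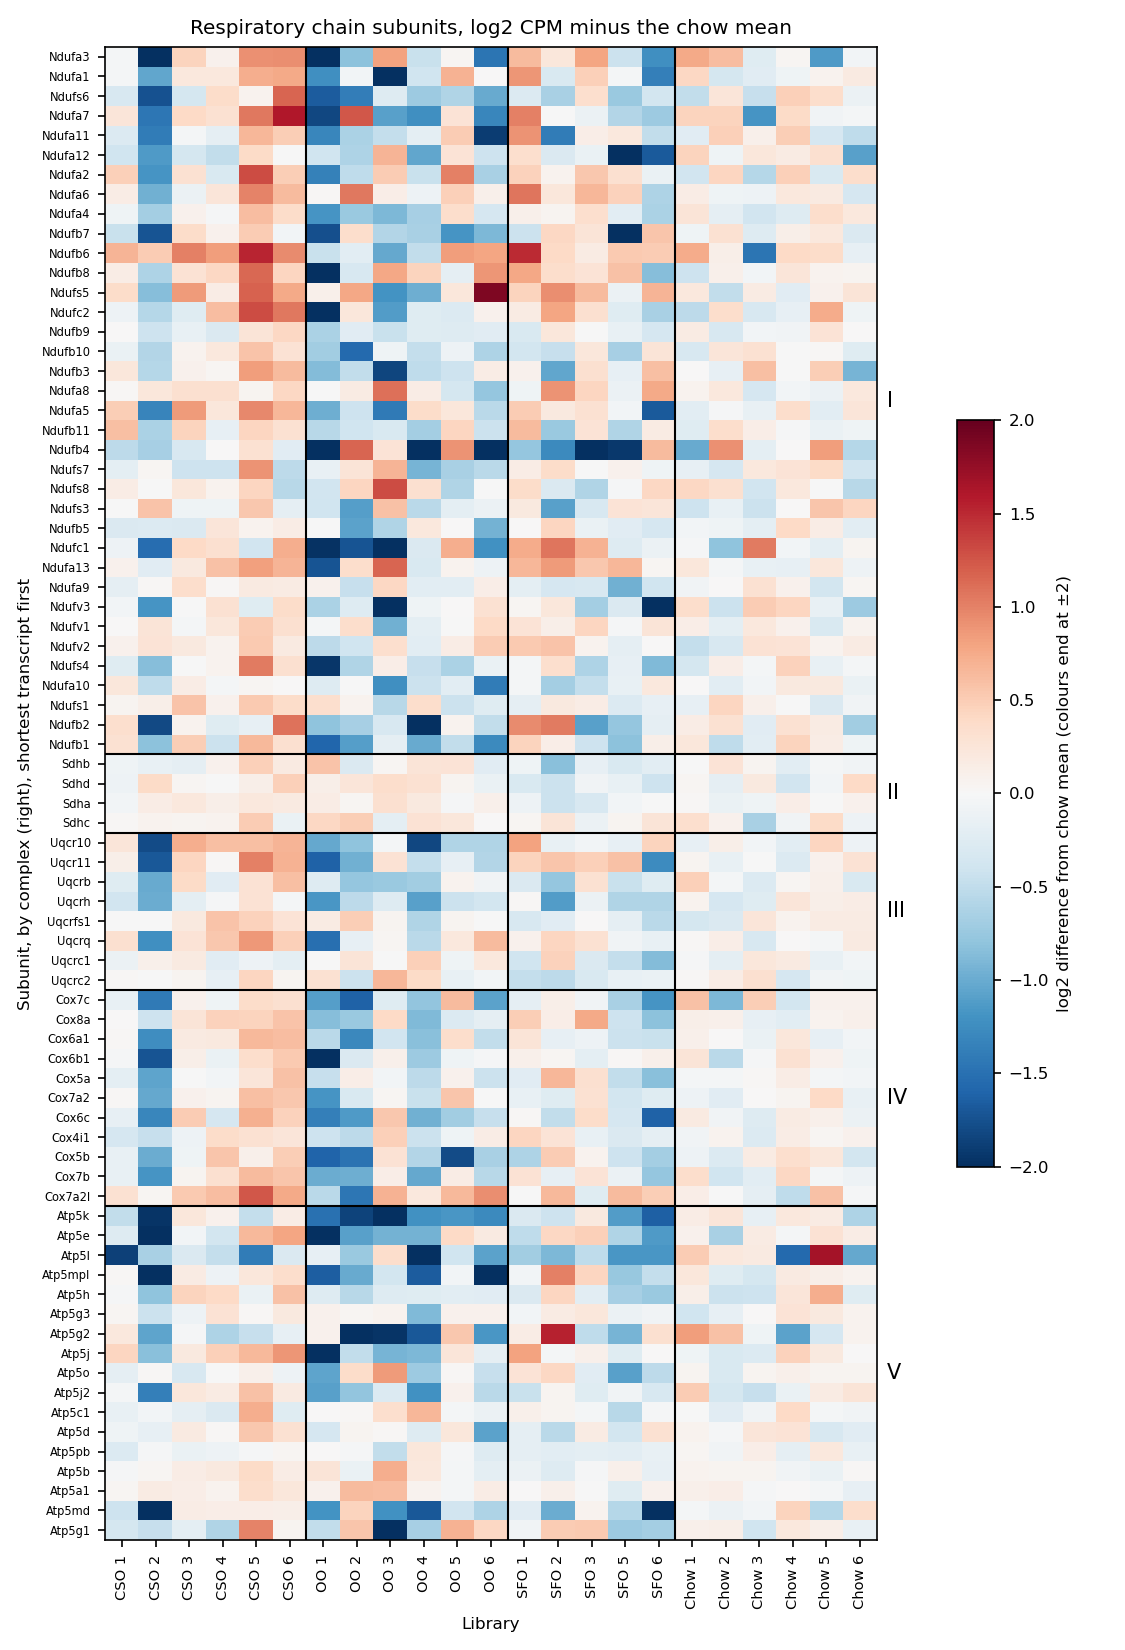
Each row is a tested subunit, grouped by complex I to V with the shortest transcript first, and each column a library of CSO, OO, SFO or chow; colour is the log2 difference in CPM (with 0.5 added) from the mean of the 6 chow libraries. CSO 2 and OO 1 are blue over many short rows and pale over complex II, and CSO 5 and CSO 6 are red over most rows.

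Summed over each complex, the diets overlapped in most pairs, and these sums were not tested. The 83 subunits together came to 8544 ± 1118 CPM in CSO over 6 libraries (mean ± SD), to 7972 ± 746 in OO over 6 libraries and to 7508 ± 409 in SFO over 5, against 7929 ± 203 in chow over 6. The spread between libraries was thus widest in CSO, from 7174 CPM in CSO 2 to 10349 CPM in CSO 5, and narrowest in chow, from 7691 to 8206 CPM. Complex I summed to 2095 ± 364 CPM in CSO, 1711 ± 166 in OO and 1912 ± 150 in SFO, against 1902 ± 92.5 in chow. Complex IV summed to 725 ± 211 CPM in CSO, 565 ± 163 in OO and 659 ± 118 in SFO, against 676 ± 46.7 in chow. Complex V summed to 3491 ± 377 CPM in CSO, 3479 ± 479 in OO and 3117 ± 174 in SFO, against 3262 ± 105 in chow. In complexes I, IV and V the ranges of CSO, OO and SFO all overlapped those of chow. With TMM scaling the complex II sum was 1091 to 1329 CPM in OO and 846 to 1055 CPM in SFO, and these 2 ranges did not overlap. The TMM factors were 0.811 to 1.03 in OO and 0.973 to 1.04 in SFO, and with library totals alone the 2 ranges overlap. How often other gene sets had ranges apart was not counted.

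**Figure D2:**
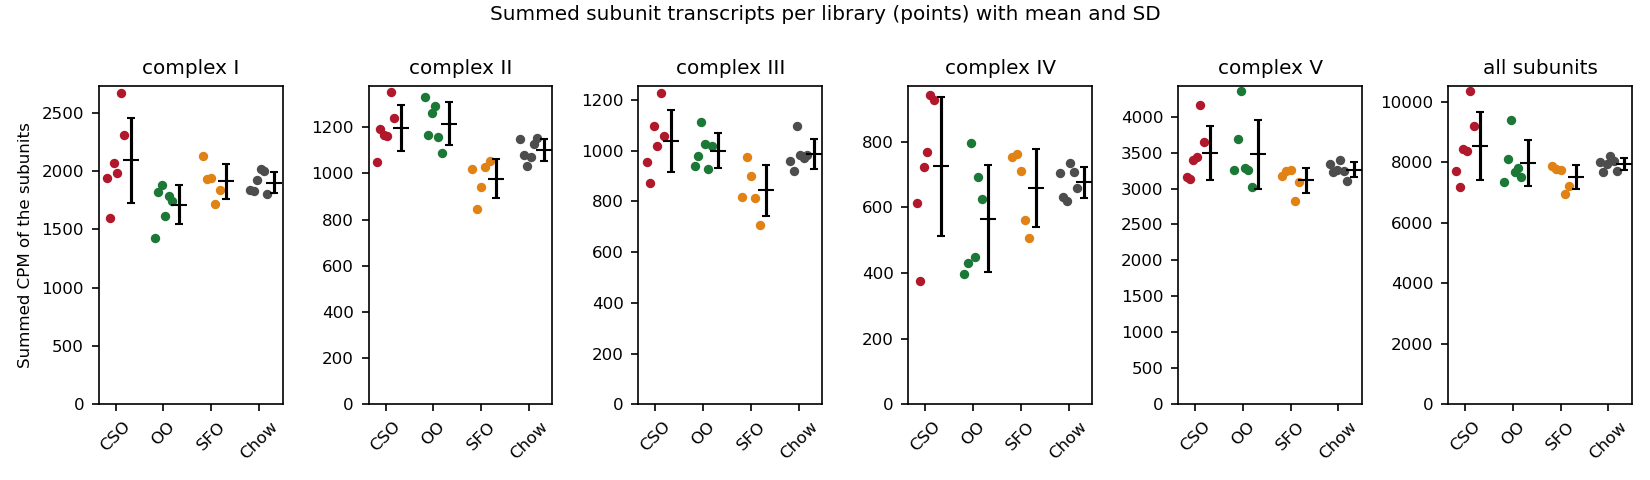
Summed CPM of the subunits of each complex and of all subunits (vertical axes, from 0), 1 point per library of CSO, OO, SFO and chow, with the mean and SD beside the points. The chow points sit closest together for all subunits (7691 to 8206 CPM), and complex II is lower in all 5 SFO libraries (846 to 1055 CPM) than in all 6 OO libraries (1091 to 1329 CPM). The complex II ranges are apart with the TMM scaling shown and overlap with library totals alone.

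Complex I has a core of subunits that carry the flavin, iron-sulfur clusters and quinone site, surrounded by accessory subunits. The 7 core subunits had a median log2 fold change of 0.20 in CSO over chow, -0.03 in OO over chow and 0.06 in SFO over chow. Without the 4 libraries richest in muscle transcripts these were 0.26, 0.18 and 0.18, and with 1 library left out the OO value ran from -0.08 (without chow 1) to 0.02 (without chow 3) and the SFO value from -0.02 (without SFO 6) to 0.12 (without chow 3), so neither has a settled sign. Ndufs1, which holds several of the iron-sulfur clusters, had a log2 fold change of 0.28 ± 0.20 (± SE) in CSO over chow, -0.05 ± 0.20 in OO over chow and -0.06 ± 0.21 in SFO over chow. Ndufv1, which binds the flavin and NADH, had 0.22 ± 0.19, -0.03 ± 0.19 and 0.21 ± 0.20 in the same 3 comparisons.

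The 29 accessory subunits of complex I tested had medians of 0.15 in CSO over chow, -0.34 in OO over chow and 0.01 in SFO over chow, and 24 of the 29 were negative in OO over chow. With 1 library left out the CSO value ran from 0.05 (without CSO 5) to 0.29 (without CSO 2), the OO value from -0.49 to -0.26 and the SFO value from -0.10 (without SFO 1) to 0.12 (without SFO 6). Ndufa10, an accessory subunit, was at 139, 201 and 231 CPM in CSO (lowest, median and highest), 74.3, 156 and 196 in OO, and 193, 123, 141, 179 and 228 in the 5 SFO libraries, against 170, 194 and 227 in chow. All OO libraries but OO 2, 5 of 6, were below every chow library, and the fold change of OO over chow was -0.51 ± 0.20 (adjusted p = 0.149). Ndufb6, a membrane arm subunit, was at 18.5, 24.4 and 37.7 CPM in CSO, 6.09, 10.1 and 23.3 in OO, and 37.0, 17.1, 14.5, 18.8 and 18.6 in SFO, against 4.35, 15.3 and 21.9 in chow. It had the highest fold change over chow in CSO among subunits averaging 4 or more in log2 CPM, 0.83 ± 0.45 (adjusted p = 0.9996, 95% interval -0.07 to 1.74), and the 2 groups overlapped. Ndufa13, which is also known as an apoptosis-related protein, had the highest in SFO, 0.57 ± 0.34 (adjusted p = 0.771). Its 5 SFO libraries were at 55.6, 63.5, 50.7, 55.6 and 36.0 CPM, against 31.2, 33.1 and 41.1 in chow, so that 4 of the 5 were above every chow library.

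Complex II, succinate dehydrogenase, is also an enzyme of the citric acid cycle. All 4 of its subunits had a higher mean in CSO and in OO than in chow, with medians of 0.11 in CSO over chow and 0.14 in OO over chow, and the OO value was -0.05 (3 of 4 negative) when libraries were scaled by their totals alone. In SFO over chow the median was -0.23. With 1 library left out the CSO value ran from 0.05 (without CSO 5) to 0.14, the OO value from 0.12 to 0.20 and the SFO value from -0.26 to -0.14 (without SFO 2), and the OO value was 0.08 without the 4 libraries richest in muscle transcripts. Sdha, the flavoprotein that oxidises succinate, was at 533, 622 and 645 CPM in CSO, 543, 604 and 693 in OO, and 517, 410, 443, 536 and 551 in SFO, against 505, 556 and 604 in chow. SFO 2 and SFO 3 were below every library of the other diets. Sdhb, the iron-sulfur subunit whose promoter is shown above, was at 190, 213 and 299 CPM in CSO, 174, 238 and 317 in OO, and 201, 119, 192, 173 and 185 in SFO, against 185, 210 and 259 in chow. Sdhd, a membrane anchor, was at 148, 168 and 220 CPM in CSO, 146, 180 and 203 in OO, and 128, 118, 151, 144 and 120 in SFO, against 122, 158 and 209 in chow. Sdhc, the other membrane anchor, had 0.08 ± 0.17 in CSO over chow, 0.19 ± 0.17 in OO over chow and 0.06 ± 0.18 in SFO over chow. SFO over OO was -0.31 ± 0.12 for Sdha (adjusted p = 0.203), -0.43 ± 0.18 for Sdhb (adjusted p = 0.216), -0.43 ± 0.18 for Sdhd (adjusted p = 0.221) and -0.12 ± 0.18 for Sdhc (adjusted p = 0.791).

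In complex III, large and small subunits differed in their medians. Its 2 core proteins and the Rieske iron-sulfur protein had a median of 0.06 in CSO over chow, 0.15 in OO over chow (-0.05 with library totals alone) and -0.26 in SFO over chow. The 5 small subunits had 0.30, -0.49 and 0.13 in the same 3 comparisons. With 1 library left out, the large subunits ran from -0.02 (without CSO 5) to 0.13 (without chow 3) in CSO over chow, from 0.04 (without OO 3) to 0.19 in OO over chow and from -0.32 to -0.19 in SFO over chow. The small ones ran from 0.10 (without CSO 5) to 0.50 (without CSO 2) in CSO over chow, from -0.70 to -0.40 in OO over chow and from 0.03 (without SFO 1) to 0.18 in SFO over chow. Uqcrc1, a core protein, was at 279, 303 and 371 CPM in CSO, 309, 352 and 455 in OO, and 248, 451, 268, 234 and 179 in SFO, against 284, 319 and 383 in chow. SFO 2 stood at 451 CPM while the other 4 SFO libraries were below every OO and every chow library. SFO over OO was -0.40 ± 0.17 (adjusted p = 0.238), and without SFO 2 it was -0.64 with an adjusted p of 0.0397, so this library decides the call. Uqcrc2, the other core protein, was at 227, 262 and 345 CPM in CSO, 189, 280 and 403 in OO, and 184, 177, 207, 231 and 232 in SFO, against 201, 252 and 318 in chow, with SFO over OO at -0.47 ± 0.17 (adjusted p = 0.158). Uqcrfs1, the Rieske protein, had CSO over SFO at 0.50 ± 0.18 (adjusted p = 0.355), with 172, 204 and 258 CPM in CSO against 138, 148, 174, 153 and 120 in SFO. Uqcrh, the hinge protein that docks cytochrome c, was at 33.8, 63.0 and 83.3 CPM in CSO, 30.2, 48.7 and 57.0 in OO, and 69.2, 31.1, 62.9, 44.5 and 44.7 in SFO, against 54.1, 72.6 and 80.3 in chow. It had the lowest fold change of SFO over chow among subunits averaging 4 or more in log2 CPM, -0.45 ± 0.28 (adjusted p = 0.808), and -0.62 ± 0.27 in OO over chow (adjusted p = 0.215).

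Complex IV holds the small nuclear subunits that surround the catalytic core of cytochrome c oxidase. Taken with Ndufa4, which is now placed in this complex, and without Cox6a2 and Cox7a2l, its 11 tested subunits were all negative in OO over chow (median -0.45) and all positive in CSO over OO (median 0.59). In CSO over chow the median was 0.07 and in SFO over chow -0.08. Without the 4 libraries richest in muscle transcripts they were 0.17 and 0.02, with 10 of 11 negative in OO over chow. With 1 library left out the CSO value ran from -0.03 (without CSO 5) to 0.19 (without CSO 2) and the SFO value from -0.17 (without SFO 3) to -0.02 (without chow 1). Cox4i1, the ubiquitous form of subunit 4, was at 144, 211 and 257 CPM in CSO, 139, 168 and 278 in OO, and 270, 242, 180, 164 and 177 in SFO, against 165, 207 and 222 in chow, with -0.10 ± 0.18 in OO over chow (adjusted p = 0.845). Cox6a1, the liver form of subunit 6a, was at 34.1, 92.9 and 128 CPM in CSO, 33.1, 56.6 and 103 in OO, and 97.2, 72.5, 76.0, 60.4 and 59.7 in SFO, against 72.8, 80.0 and 94.9 in chow. CSO 2 and 5 of the 6 OO libraries were below every chow library, and OO over chow was -0.45 ± 0.26 (adjusted p = 0.403). Ndufa4 was at 59.9, 98.2 and 148 CPM in CSO, 42.2, 59.2 and 123 in OO, and 103, 99.7, 122, 83.2 and 61.6 in SFO, against 73.5, 98.3 and 123 in chow, with OO over chow at -0.52 ± 0.24 (adjusted p = 0.270). In Cox5a, Cox6b1, Cox7a2 and Cox8a, all small structural subunits, OO over chow was -0.19 ± 0.24, -0.40 ± 0.32, -0.15 ± 0.32 and -0.36 ± 0.32. Cox7a2l, left out of the 11 above, had 0.60 ± 0.31 in CSO over chow (adjusted p = 0.983), 0.25 ± 0.31 in OO over chow and 0.31 ± 0.33 in SFO over chow.

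Complex V has a catalytic head, a ring of c subunits and a stalk with small membrane subunits. Taken as the head were 5 subunits, Atp5a1 and Atp5b with the rotating Atp5c1, Atp5d and Atp5e, so the stalk set below is without these rotating subunits. The head had medians of 0.13 in CSO over chow, 0.15 in OO over chow (-0.04 with library totals alone) and -0.09 in SFO over chow. The 9 stalk and membrane subunits had -0.09, -0.61 and -0.24 in the same 3 comparisons, and all 9 were negative in OO over chow. The 3 c subunits had a median of -0.07 in OO over chow, which ran from -0.22 (without OO 5) to 0.06 (without OO 4). With 1 library left out the head ran from 0.04 (without CSO 5) to 0.18 in CSO over chow, from 0.03 (without OO 3) to 0.22 in OO over chow and from -0.11 to -0.04 (without chow 4) in SFO over chow. The stalk ran from -0.14 (without chow 2) to 0.00 (without CSO 2) in CSO over chow, from -0.79 to -0.51 in OO over chow and from -0.32 to -0.14 (without chow 5) in SFO over chow. Atp5a1, the alpha subunit of the head, was at 1012, 1099 and 1263 CPM in CSO, 958, 1072 and 1538 in OO, and 999, 1058, 981, 833 and 1052 in SFO, against 878, 986 and 1081 in chow. OO 2 and OO 3 stood apart at 1538 and 1512 CPM, and OO over chow was 0.27 ± 0.12 (adjusted p = 0.210). Atp5b, the catalytic beta subunit, had 0.15 ± 0.12 in CSO over chow, 0.17 ± 0.12 in OO over chow and -0.09 ± 0.13 in SFO over chow, and Atp5c1, the rotating gamma subunit, had 0.15 ± 0.17 in OO over chow and -0.09 ± 0.18 in SFO over chow. Atp5mpl, a small membrane subunit, was at 2.42, 21.2 and 25.4 CPM in CSO, 4.42, 7.77 and 19.1 in OO, and 19.0, 40.2, 26.9, 11.5 and 14.0 in SFO, against 15.3, 21.3 and 23.3 in chow. It had the lowest fold change of OO over chow among subunits averaging 4 or more in log2 CPM, -0.997 ± 0.49 (adjusted p = 0.298). Atp5k, the membrane subunit e, which stands outside the rule for naming genes and was chosen after its values were seen, was at 0, 1.67 and 2.01 CPM in OO against 3.19, 5.79 and 6.14 in chow. The 2 groups did not overlap, with OO over chow at -1.91 ± 0.96 (adjusted p = 0.323 by edgeR). DESeq2 gave -1.93 with an adjusted p of 0.0454. The authors' deposited table for OO, with its sign turned to OO over chow, gives Atp5k -1.93 with an adjusted p of 0.0474. Atp5k was the only subunit below 0.05 in that table (4.99% of the genes listed were). The authors' deposited tables for CSO and SFO hold 0 subunits below 0.05, where 0.716% of the genes listed for CSO and 1.5% of those for SFO were. For CSO, 24 of the 83 subunits have no adjusted p there and could not fall below 0.05, against 2 for OO and 0 for SFO.

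**Figure D3:**
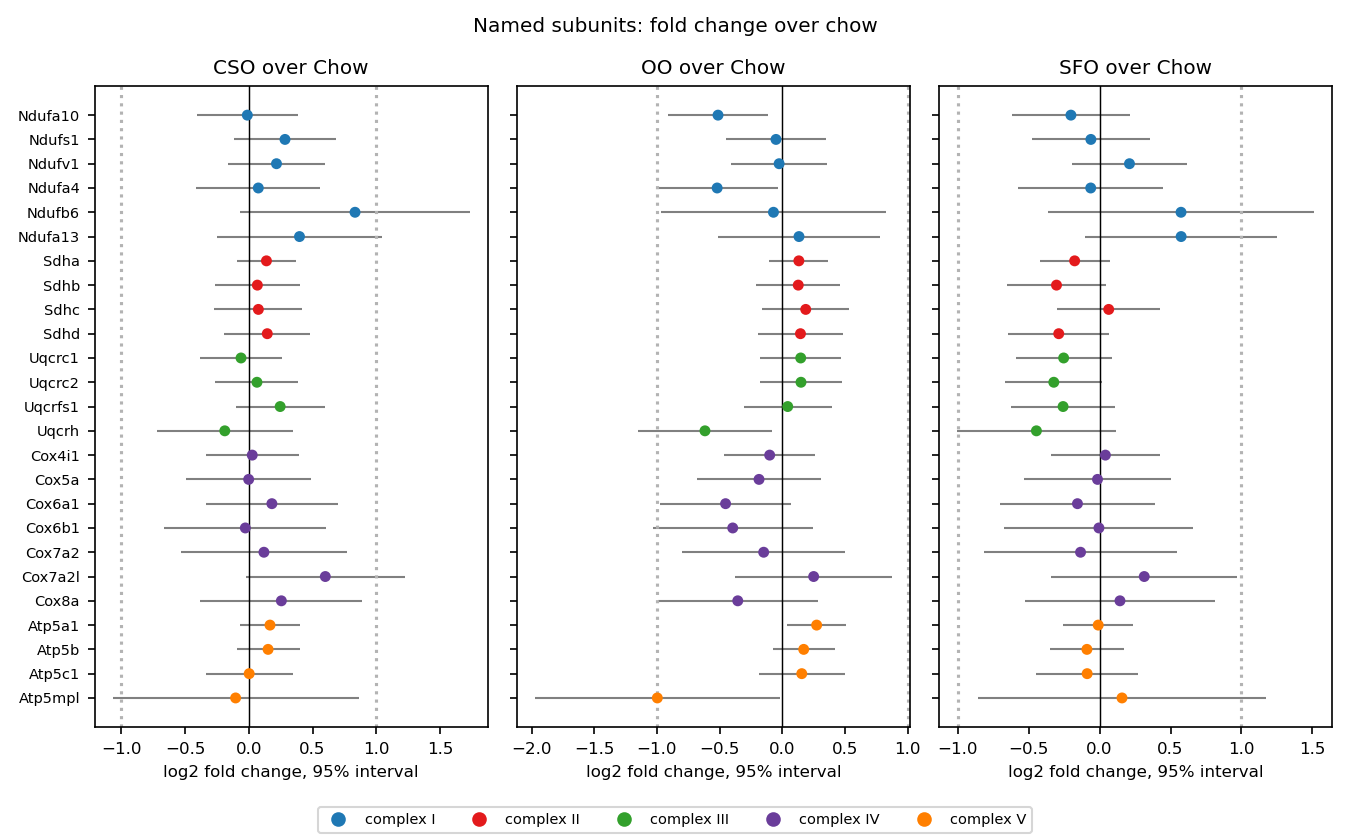
Log2 fold change over chow (points) with its 95% interval (lines) for the subunits named by rule, in CSO, OO and SFO, coloured by complex; dotted lines mark a 2-fold change either way. Intervals of most subunits cross 0 in all 3 panels, with Atp5a1 above 0 and Ndufa10, Ndufa4, Uqcrh and Atp5mpl below 0 in OO before adjustment.

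Striated muscle uses its own forms of some complex IV subunits. Cox6a2, the heart and muscle form of subunit 6a, was at 3.71 CPM in CSO 1 and at most 0.210 CPM in the other CSO libraries, and at 0, 0, 0, 0.528 and 0.379 CPM in SFO. In chow it was at 0 in chow 1 and chow 2, and at 2.08, 5.86, 1.03 and 1.41 CPM in chow 3, chow 4, chow 5 and chow 6. It had 0 counts over the 6 OO libraries and 144 over the 6 chow libraries. It no longer passed the filter on low counts when chow 3, chow 4, chow 5 or chow 6 was left out, so no fold change or p is given for it. Cox7a1, the muscle form of subunit 7a, had 2 counts in CSO (0.0976 CPM in CSO 1), 3 in OO and 1 in SFO, against 59 in chow, and the chow counts were all in chow 3 to chow 6. The muscle marker sum was 152 CPM in chow 6. The part of muscle in these 2 genes was not tested. Ndufa4l2, a relative of Ndufa4 known to respond to low oxygen, was at 5.11 CPM in CSO 5 and at most 2.28 CPM in every other library.

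Between the oils, the median of the subunits was 0.37 in CSO over OO (63 of 79 positive, median of all genes -0.08) and 0.19 in CSO over SFO (63 of 79 positive, median of all genes -0.03). In SFO over OO the median was 0.23 (59 of 79 positive, median of all genes -0.04). None of these 3 medians has a test. Adipocyte markers (3 of 6 listed are in the table) summed to 22.1 to 170 CPM in CSO, 2.01 to 75.6 in OO and 0.211 to 16.3 in SFO, against 0.281 to 41.2 in chow, with Lep at 0 in all CSO, OO and SFO libraries, and were highest in CSO 6. Only 1 of them was tested, and for CSO over SFO it was called higher by DESeq2 and not by edgeR (adjusted p = 0.334). The part of fat cells in the subunit values was not tested. The smallest adjusted p in CSO over OO was that of Atp5j, a peripheral stalk subunit, also chosen after its values were seen. It was at 30.1, 74.0 and 100.2 CPM in CSO against 12.7, 33.4 and 64.2 in OO, with CSO over OO at 0.95 ± 0.30 (adjusted p = 0.101). Without OO 5 it was 1.19 with an adjusted p of 0.0363, so this library decides the call. Cox6a1 and Ndufa4 had CSO over OO at 0.63 ± 0.26 (adjusted p = 0.211) and 0.59 ± 0.24 (adjusted p = 0.209). By role, SFO over OO had a median of -0.37 in complex II (4 of 4 negative, or 3 of 4 with library totals alone), -0.40 in the core and Rieske proteins of complex III (3 of 3 negative) and 0.30 in complex IV (11 of 11 positive). The other roles were mixed, with 4 of 7 core and 25 of 29 accessory subunits of complex I, 2 of 5 head and 6 of 9 stalk subunits of complex V positive. By transcript length, SFO over OO was 0.41 for the 21 subunits under 700 nt (21 of 21 positive). It was -0.11 for the 21 of 1200 nt and over, so role and length cannot be told apart. Other genes averaging 4 or more in log2 CPM had a like step, 0.39 under 700 nt (51 of 62 positive) and -0.15 at 1200 nt and over. In CSO over OO, other genes under 700 nt were at 0.39 (48 of 62 positive) and the short subunits at 0.57. Differences between roles were not tested.

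Transcript length went with the difference between OO and chow among the subunits. The median annotated transcript of the 77 tested subunits with a length was 838 nt, against 3008 nt for 11505 other genes, and 39.0% against 1.43% were under 700 nt. Among the 62 subunits that averaged 4 or more in log2 CPM, the 21 with a transcript under 700 nt had a median of -0.46 in OO over chow (19 of 21 negative). The 20 from 700 to under 1200 nt had -0.28, and the 21 of 1200 nt and over 0.00. Other genes at this level showed a like step, with -0.29 for 62 genes under 700 nt (47 negative), 0.09 for 346 genes from 700 to under 1200 nt and 0.17 for 5752 longer genes. Without cytosolic ribosomal proteins the 45 other genes under 700 nt had -0.20. The classes were chosen after values were seen, and transcripts of a class were not otherwise matched. The longest class also holds subunits with a short coding sequence, such as Atp5g1 (4715 nt, 408 nt coding) and Uqcrq (1521 nt, 246 nt coding). Their class thus depends on which annotated transcript was taken. In CSO over chow the 3 classes of subunits had 0.07, 0.06 and 0.15, and in SFO over chow -0.01, -0.06 and -0.11. With library totals alone the 3 classes were at -0.64, -0.46 and -0.18 in OO over chow. Without the 4 libraries richest in muscle transcripts the short subunits were at -0.45 in OO over chow and the longest at 0.06. Across the 77 subunits the Spearman correlation of length and fold change of OO over chow was 0.454, and across 11505 other genes 0.02. With the mean CPM the correlation was 0.616 across the same subunits, so length and level cannot be told apart here. These correlations are across genes of the same libraries and have no p.

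**Figure D4:**
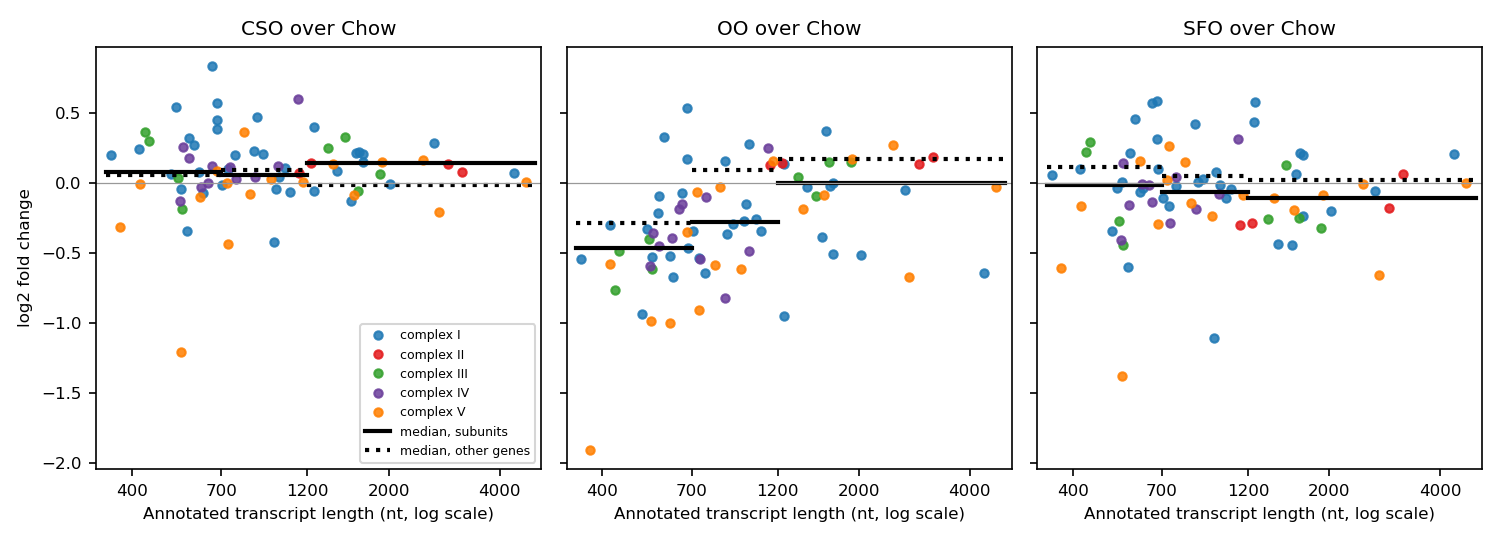
Log2 fold change over chow (vertical axis) against annotated transcript length in nt (horizontal, log scale) for the tested subunits in CSO, OO and SFO, coloured by complex; solid lines are medians of subunits and dotted lines of other genes in the 3 length classes, for genes averaging 4 or more in log2 CPM. In OO the shortest class of subunits lies at -0.46 and that of other genes at -0.29, while in CSO and SFO the medians stay between -0.11 and 0.15.

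Library by library, the short subunits of OO were not equally low. Their median log2 difference from the chow mean was -1.18 in OO 1, -0.63 in OO 2, -0.25 in OO 3, -0.66 in OO 4, -0.05 in OO 5 and -0.34 in OO 6. In CSO it was -1.06 in CSO 2, 0.60 in CSO 5 and 0.58 in CSO 6, and -0.03 to 0.11 in the other 3. In SFO it was 0.10, 0.14, 0.30, -0.41 and -0.60, and in chow it ran from -0.13 to 0.15. CSO 2 and OO 1, libraries of different diets, thus held the lowest values of short subunits. The other genes under 700 nt were at -0.66 in CSO 2, -0.96 in OO 1, 0.43 in CSO 5 and 0.38 in CSO 6, so in these 4 libraries they had the sign of the subunits. In OO 3 they were at -0.51, where the short subunits were at -0.25, and in SFO 5 at 0.01, where the short subunits were at -0.41. The subunits of 1200 nt and over were at 0.02 in CSO 2 and 0.01 in OO 1. The part of RNA or library quality in this was not tested. Of the 62 subunits, 37 were below every chow library in CSO 2, 35 in OO 1, 30 in OO 2 and 32 in OO 4. Above every chow library were 45 in CSO 5 and 35 in CSO 6. The same count was not made over all genes, so these counts cannot be read as particular to the subunits. CSO 2 also held pancreatic transcripts, with 6 exocrine pancreas markers summing to 86.5 CPM, against 10.5 CPM or less in every other library.

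**Figure D5:**
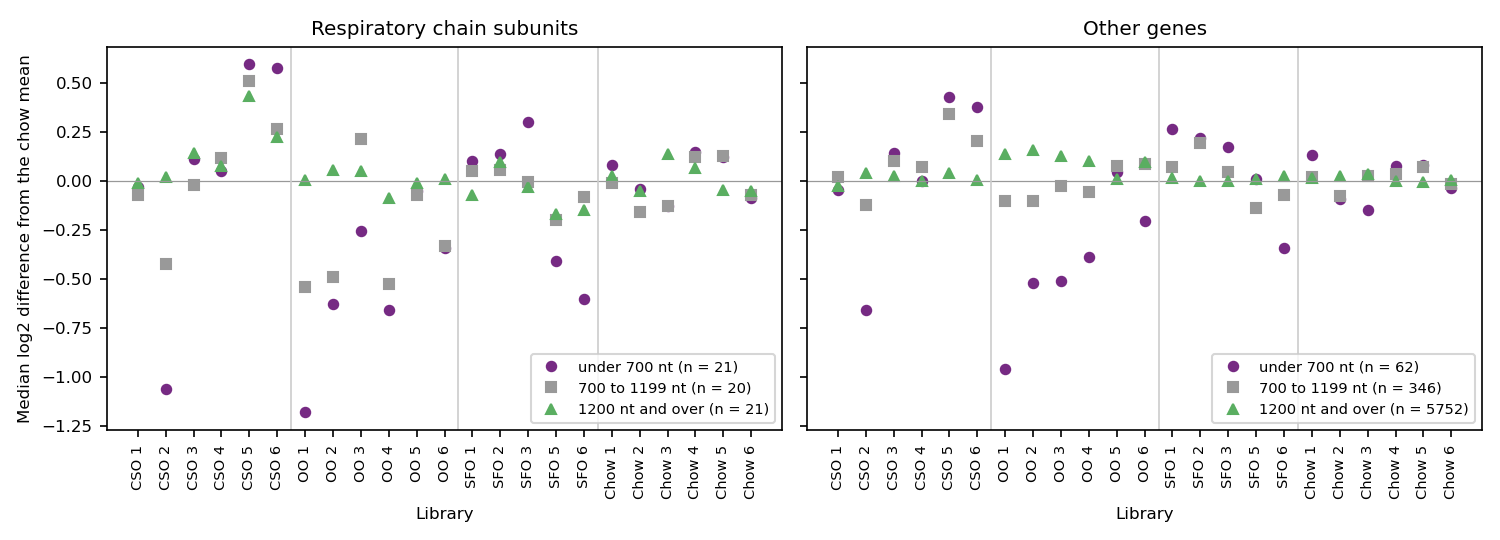
Median log2 difference from the chow mean (vertical axis) in each library for subunits (left) and other genes (right), by transcript length class. Circles, the transcripts under 700 nt, drop to -1.06 and -0.66 in CSO 2 and to -1.18 and -0.96 in OO 1 for subunits and other genes, while triangles, the subunits of 1200 nt and over, are at 0.02 in CSO 2 and 0.01 in OO 1.

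The spread of the subunits between libraries was not tested. The median SD of a subunit between libraries, on the log2 scale over the 62 subunits, was 0.42 in CSO, 0.54 in OO and 0.40 in SFO, against 0.24 in chow. Over all 6270 genes at this level it was 0.36 in CSO, 0.70 in OO and 0.52 in SFO, against 0.38 in chow. Atp5pb, a stalk subunit, and Sdha varied least over all 23 libraries, with an SD of 0.16 and 0.18, and Atp5mpl most, with 0.90.

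Genes that serve the chain without being members of it were taken as 5 lists. For OO over chow, edgeR called 2.64% of all genes, DESeq2 called 5.73% and 16.1% had an unadjusted p under 0.05. For CSO over chow these shares were 0.409%, 0.819% and 5.32%, and for SFO over chow 0.835%, 1.56% and 7.74%. Between oils, edgeR called 1.06% of all genes in SFO over OO and 1.09% in CSO over OO. The counts below are to be read against these shares. Of 47 tested assembly factors, edgeR called 0 against chow. At an unadjusted p under 0.05 there were 0 for CSO, 1 higher for OO and 1 lower for SFO, and DESeq2 called 0, 0 and 1. Coa5, a complex IV assembly factor, was lower in SFO than in OO (21.6 ± 8.43 CPM in SFO against 52.7 ± 20.7 in OO, mean ± SD, log2 -1.29 ± 0.34, adjusted p = 0.0444). Of 17 carriers and subunits outside the name rule, Ucp2, a carrier of the inner membrane, was higher in CSO than in OO (61.4 ± 38.8 CPM in CSO against 13.9 ± 11.7 in OO, mean ± SD, log2 2.13 ± 0.47, adjusted p = 0.0130). None of the 18 genes of pyruvate dehydrogenase and the citric acid cycle, the 16 regulators of mitochondrial gene expression or the 78 mitochondrial ribosomal proteins was called by edgeR in any of the 6 comparisons. In OO over chow, 1 lower citric acid cycle gene, 1 higher and 1 lower regulator, and 2 higher and 3 lower mitochondrial ribosomal proteins had an unadjusted p under 0.05, and DESeq2 called 1, 0 and 1 in these 3 lists, all lower. Of the 17 carriers and subunits outside the name rule, 2 higher and 1 lower had an unadjusted p under 0.05 in OO over chow. DESeq2 called 1 of them, lower. It called 1 citric acid cycle gene in each of CSO over chow (0.819% of all genes), SFO over chow (1.56%) and CSO over SFO (1.03%). Of the mitochondrial ribosomal proteins it called 1 in CSO over OO (3.45%) and 1 in SFO over OO (3.86%). It called 0 regulators in the other 5 comparisons. Medians in OO over chow were 0.08 for assembly factors, 0.12 for carriers, 0.15 for the citric acid cycle, -0.14 for regulators and 0.04 for mitochondrial ribosomal proteins. The 81 tested cytosolic ribosomal proteins, a list added after values were seen, had a median of -0.38 in OO over chow, with 71 negative and 2 called lower, a share near the 2.64% of all genes called. One of these was Rps26, a protein of the small ribosomal subunit (22.3 ± 4.06 CPM in OO against 50.8 ± 11.3 in chow, mean ± SD, log2 -1.19 ± 0.33, adjusted p = 0.0371). The other, Rpl3l, is a muscle form, at 0.0197 ± 0.0484 CPM in OO against 5.23 ± 5.85 in chow (mean ± SD), where 3 of the 4 libraries richest in muscle transcripts are.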

How the data were processed

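The data are unnormalized counts for 23 libraries, as the authors deposited them, and 3 deposited tables of chow against 1 oil each, whose log2 fold changes and p-values are the authors' own. The tools named in the submitters' processing notes are Trimmomatic, STAR 2.7.1a, HTSeq 0.9.1, DESeq2 and the build mm39. No source used here states the strand setting. SFO_4 has no column in the table and is not analysed here.

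Counts were filtered with filterByExpr (11971 genes kept) and fitted once over the 4 diets in R 4.3.3 with edgeR 4.0.16 (TMM, robust quasi-likelihood F test, adjusted p under 0.05 over all genes). DESeq2 1.42.0 was an alternative, beside other scalings, filters, a replicate block and each library left out. The fit was tested on simulated data. Standard errors were derived from the F statistic. CPM are TMM scaled. Transcript lengths are those of the transcript with the longest coding sequence in the basic GENCODE annotation of another build (GRCm38), matched by symbol or synonym. Where transcripts tied in coding length, the longest was taken. Whether that transcript is the one expressed in liver was not checked. Pseudogene copies such as Ndufs5-ps resemble their parent genes, so how reads divide between them is uncertain.

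Subunits were named with values if called, if among the 2 highest of their complex, if on a list fixed in the design or if their fold change against chow was the most extreme above a level of 4 in mean log2 CPM. The subunits and all lists were chosen with earlier results of these data known. A subunit that meets this rule is not reported here. The labels name no batch.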

Additional observations from a re-analysis of the deposited data

Results flagged for a closer look

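Values that stood far from the rest of their diet were flagged in 18 of 140 groups tested. The rule takes the gap to the nearest library against the range of the group. Chance flags about 1 in 20 for normal values in separate groups, so 18 cannot be set against that rate here. The sums contain the single subunits, and Cox6a2, Cox7a1 and Ndufa4l2 were at or near 0 CPM in many libraries. In CSO 5, Atp5c1 was at 439 CPM (216 to 253 in the other CSO libraries), Uqcrc2 at 345 CPM (227 to 265), Sdhc at 238 CPM (153 to 176) and Ndufa4l2 at 5.11 CPM (0 to 1.09). CSO 2 had the low value of Atp5mpl, 2.42 CPM (18.3 to 25.4), and CSO 1 the high value of Cox6a2, 3.71 CPM (0 to 0.210). In OO 3 all subunits summed to 9401 CPM (7351 to 8092 in the other OO libraries). OO 5 alone held Ndufa4l2, at 0.223 CPM, and Cox7a1, at 0.335 CPM. SFO 3 was high for Ndufa4l2 at 2.28 CPM (0 to 0.379), for Cox7a1 at 0.0911 CPM (0 in the others) and for Cox7a2 at 43.4 CPM (26.9 to 31.5). SFO 5 was low for Atp5c1 at 179 CPM (258 to 283), and SFO 1 high for Ndufb6 at 37.0 CPM (14.5 to 18.8). In chow 4, Cox5a was at 98.2 CPM (84.8 to 89.6), Cox6a2 at 5.86 CPM (0 to 2.08) and Atp5c1 at 349.6 CPM (225 to 264), and in chow 3 complex III summed to 1096.5 CPM (922 to 985).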

How the results depend on the processing

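The count of subunits called stayed at 0 in all 6 comparisons under every scaling, filter, choice of libraries and block tried, except 1 in OO over chow with DESeq2's Wald test (Atp5k), 0 to 1 in CSO over OO when 1 library was left out (Atp5j without OO 5) and 0 to 1 in SFO over OO (Uqcrc1 at -0.64 without SFO 2). Of 3132 values of 27 named subunits under the alternatives, 1 gained a call. None of the 27 was called in the main fit, so no call could be lost. A change of sign could be counted only for the gained call, which kept its sign. Scaling by library totals alone gave mean subunit sums of 8770 CPM in CSO, 7329 in OO, 7572 in SFO and 8325 in chow. With TMM scaling they were 8544, 7972, 7508 and 7929, so OO was near chow with TMM and below it with totals. Library totals also moved the median of all genes in OO over chow to -0.12, with that of the subunits at -0.47. Leaving out 1 library, the median of the subunits ran from 0.01 to 0.19 in CSO over chow, -0.42 to -0.20 in OO over chow, -0.11 to 0.02 in SFO over chow, 0.28 to 0.55 in CSO over OO, 0.11 to 0.31 in CSO over SFO and 0.12 to 0.29 in SFO over OO. Without CSO 5 the CSO over chow median was thus 0.01, and without chow 4 the SFO over chow median was 0.02. Without the 4 libraries richest in muscle transcripts the OO over chow median was -0.21, and 1 subunit had an unadjusted p under 0.05, against 9 with all libraries. Over all genes, edgeR then called 26 of 12371 in OO over chow, against 316 of 11971 with all libraries. The fall was thus not limited to the subunits, and the setting holds fewer chow libraries. Same-numbered libraries of 2 diets did not deviate together (33 pairs, correlation -0.10 to 0.03). The labels do not say whether the numbers pair libraries, and such a correlation would miss a small shared effect. With the replicate number as a block 0 subunits were called and the OO over chow median was -0.34.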
